A study of Mus musculus with 6 samples.

Results

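Chemokine ligands are small secreted proteins that direct the movement of leukocytes, and T cells release them as well as respond to them. The family is divided by the first cysteines of the mature protein: adjacent in CC ligands, separated by a single residue in CXC ligands, and with only the second of the usual pair in the C ligand Xcl1. Expression is described here for 6 of these genes, Ccl3, Ccl4 and Ccl5 (CC), Xcl1 (C), and Cxcl2 and Cxcl3 (CXC). Ccl3, Ccl4 and Ccl5 are typical products of activated and memory CD8+ T cells and of NK cells. Xcl1 binds XCR1 on cross-presenting dendritic cells, whereas Cxcl2 and Cxcl3 bind CXCR2, through which neutrophils are recruited. The genes were chosen by name, with earlier results of these data known, and their 6 rows were taken from a count table of 14597 genes.

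The table was made from TCRβ+ cells that had been sorted out of B16-F10 tumors, which are melanomas grown under the skin from a mouse cell line. All host mice were Foxp3-EGFP-DTR mice. In them the Foxp3 gene drives EGFP together with a receptor for diphtheria toxin (DTx), and the toxin depletes cells that express Foxp3. The labels name 3 samples of PBS-treated and 3 of DTx-treated mice. The cells of the table carry library numbers from 1 to 6 that no label ties to a treatment. PBS and DTx could therefore not be compared. Libraries of unknown treatment were not treated as replicates, so comparisons between populations were made within each library, were not tested across libraries and carry no p-value.

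The table held 21816565 unique molecular identifiers (UMIs, each standing for 1 captured transcript) from 12818 cells, with 1768 to 2640 cells and a median of 610 to 2500 UMIs per cell in a library. A UMI of a Cd3 or T cell receptor gene was present in 86.0% to 99.4% of the cells of a library, and 152 cells carried a barcode found in more than 1 library. Cells were assigned by UMIs to CD4+ Tconv cells (Cd4, without Cd8a, Cd8b1 or Foxp3), CD8+ cells (Cd8a or Cd8b1, without Cd4 or Foxp3) and Foxp3+ cells (Foxp3, without Cd8a or Cd8b1). These gates held 1205, 4497 and 97 cells, with median depths of 1622, 1708 and 1532 UMIs. A further 168 cells carried UMIs of both Cd4 and Cd8, at a median of 4234 UMIs. The remaining 6851 cells had a median of 957 UMIs, and 6838 cells of the table carried no UMI of any gating gene. Lack of a UMI in such shallow cells does not show that a gene was off.

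The spacing that separates the families can be read in the coding sequence. The stretches below, each of 33 bases of exon 2, hold the first cysteine codons of the mature proteins, with the cysteine codons of the motif in capitals, from the GRCm38 genome and GENCODE gene models. They lie at chr11:83663470-83663502 (plus strand) for Ccl4, chr11:83529227-83529259 (minus) for Ccl5, chr1:164932957-164932989 (minus) for Xcl1, chr5:90904130-90904162 (plus) for Cxcl2 and chr5:90786356-90786388 (plus) for Cxcl3.
Ccl4: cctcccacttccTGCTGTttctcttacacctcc
Ccl5: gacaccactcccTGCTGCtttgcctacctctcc
Xcl1: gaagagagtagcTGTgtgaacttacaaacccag
Cxcl2: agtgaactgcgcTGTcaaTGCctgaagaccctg
Cxcl3: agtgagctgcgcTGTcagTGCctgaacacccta
The cysteine codons are adjacent in Ccl4 and Ccl5, separated by 1 codon in the CXC genes and single in Xcl1. Past the first 20 codons, which cover most of the signal peptide, the coding sequence holds 4 cysteine codons in each of these CC and CXC genes and 2 in Xcl1.

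The genes fall into separate loci. Ccl5 (ENSMUSG00000035042.2, chr11:83525778-83530518, minus strand), Ccl3 (ENSMUSG00000000982.5, chr11:83647844-83649355, minus) and Ccl4 (ENSMUSG00000018930.3, chr11:83662584-83664683, plus) share a cluster on chromosome 11. Ccl3 and Ccl4 are 13228 bases apart and point away from each other, and 117325 bases lie between Ccl5 and Ccl3. Cxcl3 (ENSMUSG00000029379.10, chr5:90786103-90789600, plus) and Cxcl2 (ENSMUSG00000058427.10, chr5:90903871-90905938, plus) lie on chromosome 5 with 114270 bases between them, and Xcl1 (ENSMUSG00000026573.7, chr1:164931644-164935527, minus) is alone on chromosome 1. Coding sequences of Cxcl2 and Cxcl3 were identical at 89.8% of aligned bases, and their transcripts shared an unbroken run of 110 bases. The 3 CC genes were identical to each other at 63.4% to 70.1%, with runs of at most 13 bases. Reads of Cxcl2 and Cxcl3 may thus be assigned to the wrong gene of the pair or dropped, and the read length was not given in the sources used here.

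Cxcl2 and Cxcl3 were also found in the same cells, as described further on, and the 120 bases before the start of each gene in the RefSeq table for GRCm38 are shown for that reason (chr5:90903751-90903870 and chr5:90785981-90786100, plus strand). Capitals mark GGGAATTTCCC, the longest run that both stretches share (11 bases), which holds a site of the κB type bound by NF-κB, and TATAAA, the TATA box.
Cxcl2: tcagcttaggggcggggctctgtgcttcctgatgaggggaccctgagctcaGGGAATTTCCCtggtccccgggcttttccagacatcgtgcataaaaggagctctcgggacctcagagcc
Cxcl3: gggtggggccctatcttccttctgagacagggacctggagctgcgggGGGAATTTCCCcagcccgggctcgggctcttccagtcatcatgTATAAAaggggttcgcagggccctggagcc
The shared run begins 69 bases before the end of the Cxcl2 stretch and 73 before that of Cxcl3, and the stretches were identical at 67.9% of aligned columns. On either strand of the bases upstream of the start, GGGAATTTCCC was present in 14 of 32851 RefSeq promoters (0.0426%). Cxcl2 and Cxcl3 are among these by construction, since the run was taken from them. Its part in their expression was not tested. TATAAA was present in 12.4% of them and TGANTCA, an AP-1 motif, in 6.75%. The promoters of Ccl3 and Xcl1 held none of the 3 motifs, which says only that these letters are not in this window. Ccl4 and Ccl5 had no entry among these promoters.

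Together the 6 genes gave 140965 UMIs, or 0.646% of all UMIs, and 89.3% of these came from Ccl5. At least 1 of them was detected in 5534 cells (43.2%). The number of cells with a UMI was 5120 for Ccl5 (39.9%), 1960 for Ccl4 (15.3%), 725 for Xcl1 (5.66%), 634 for Ccl3 (4.95%), 102 for Cxcl2 (0.796%) and 36 for Cxcl3 (0.281%). The level, in UMIs per 10,000 UMIs of all genes with its exact Poisson 95% interval, was 57.7 (57.4 to 58.0) for Ccl5, 4.69 (4.60 to 4.78) for Ccl4, 1.11 (1.07 to 1.16) for Xcl1, 0.731 (0.695 to 0.767) for Ccl3, 0.245 (0.225 to 0.267) for Cxcl2 and 0.116 (0.102 to 0.131) for Cxcl3. Libraries were made from the 5′ ends of transcripts, so levels are not divided by gene length. These intervals, like all others given, cover counting error only and not differences between mice. Those of levels and of UMI ratios also take each UMI as independent and do not cover differences between cells. They are too narrow where UMIs gather in few cells.

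The rarer ligands were found in few cells. The median cell with a Ccl5 UMI held 14 of them, and 776 cells accounted for 50% of all Ccl5 UMIs. Cells with Cxcl3 or Cxcl2 were few but not poor in it: the median was 4 and 3 UMIs per positive cell, and the highest was 33 and 43. The 10 cells with the most UMIs held 69.8% of Cxcl3, 37.6% of Cxcl2, 19.9% of Xcl1, 10.5% of Ccl3, 6.98% of Ccl4 and 1.62% of Ccl5. These shares depend on the number of positive cells. Taken as a share of the positive cells, those holding 50% of the UMIs differed little between CXC and CC genes. They were 16.7% for Cxcl3 and for Cxcl2, 16.4% for Ccl3, 15.2% for Ccl5, 13.2% for Ccl4 and 10.9% for Xcl1. Single UMIs made up 53.5% of the cells called positive for Ccl3 and 51.2% of those for Xcl1, against 13.2% for Ccl5.

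The libraries were first set side by side. Ccl5 gave 70.5, 8.36, 61.5, 65.0, 60.1 and 75.5 UMIs per 10,000 in libraries 1 to 6, so that library 2 stood far below the other 5. Ccl4 gave 3.02, 1.11, 3.53, 6.75, 5.22 and 6.17, Ccl3 gave 0.461, 0.157, 0.553, 1.07, 0.856 and 0.890, and Xcl1 gave 1.78, 0.569, 1.31, 0.720, 1.08 and 1.55. Library 2 was the lowest for each of these 4 genes. Cxcl2 had another order, at 0.583, 0.0315, 1.04, 0.259, 0.0117 and 0.0427, with the high values in libraries 1, 3 and 4. Cxcl3, at 0.0339, 0, 0.167, 0.316, 0.0566 and 0.0540, was highest in library 4. None of the 3179316 UMIs of library 2 came from Cxcl3, which allows up to 0.00944 per 10,000. No order of these libraries is read as an effect of treatment.

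The sites of expression were then compared between lineages. CD8+ cells held 45.3% of all UMIs but 75.8% of the UMIs of Ccl3, Ccl4 and Ccl5 together, while CD4+ Tconv cells held 12.0% of all UMIs and 2.75% of the CC sum. For Cxcl2 and Cxcl3 together the shares were 5.72% in CD8+ cells and 18.9% in CD4+ Tconv cells, and most of the rest (66.3% of the CXC sum) lay in the cells outside the gates. The CD8+ share of Xcl1 lay between these, at 60.8% of its UMIs, with 33.5% in the cells outside the gates. Its CD4+ Tconv share of 2.51% was close to that of the CC sum. The CXC sum rested on 787 UMIs in 123 cells, against 137752 UMIs in 5334 cells for the CC sum. The CD4+ share of the CXC sum was 11.2% without library 4, and the CD8+ share was 3.60% without library 3.

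**Figure D1:**
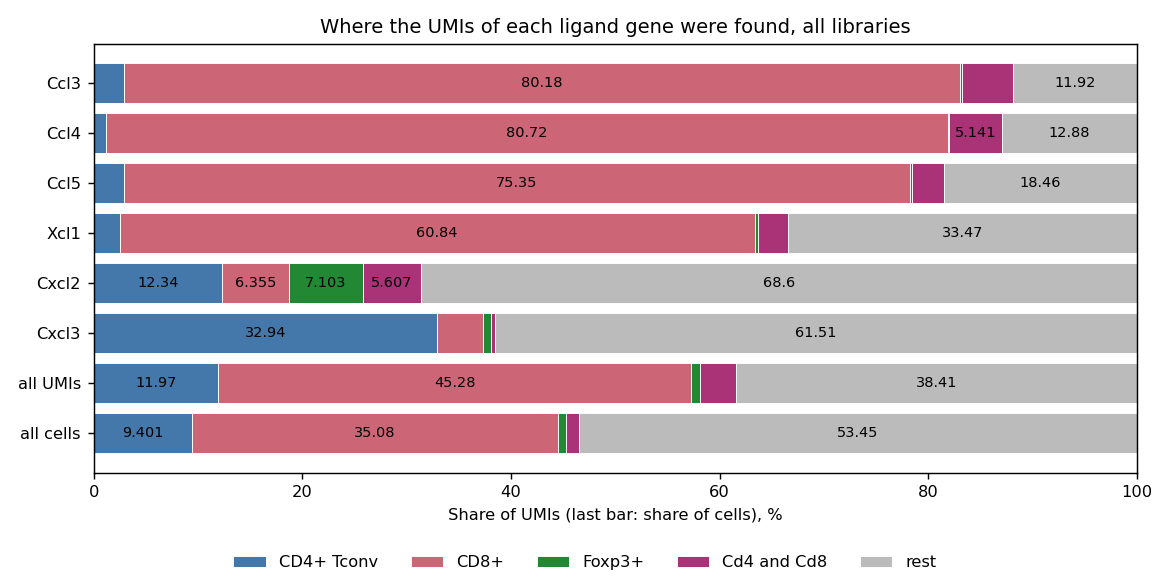
Share of the UMIs of each ligand gene (horizontal axis, percent) found in each gate, pooled over 6 libraries, with the share of all UMIs and of all cells in the last bars; the rest are cells outside the named gates. CD8+ cells hold between 60.8% and 80.7% of Ccl3, Ccl4, Ccl5 and Xcl1 UMIs, but 6.36% of Cxcl2 and 4.37% of Cxcl3 UMIs.

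For each comparison between populations, the UMI count of the first was set over the count that the level of the second population in that library predicts. A gene was called when it had at least 20 UMIs over both, differed at least 2-fold with 0.5 added to both numbers, and went the same way in every library with at least 10 cells of both kinds. Between CD8+ and CD4+ Tconv cells, 168 of 10384 genes were called higher (1.62%) and 132 were called lower (1.27%), with a median log2 ratio of −0.05 over all genes tested. Of the 6 ligand genes, Ccl4, Ccl5 and Xcl1 were called higher in CD8+ cells and none was called lower.

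Of the 3 called genes, Ccl4 had the highest ratio. Its level in CD8+ cells was 5.52, 2.20, 7.33, 11.7, 8.81 and 9.38 UMIs per 10,000 in libraries 1 to 6, against 1.40, 0, 1.21, 0.335, 0.223 and 0.732 in CD4+ Tconv cells. The CD8+ level was the higher in each of the 6 libraries, and every CD8+ value lay above every CD4+ value. The pooled ratio was 16.8 (13.9 to 20.4), and a UMI was present in 34.0% of CD8+ and 2.99% of CD4+ Tconv cells. With every cell thinned to 1000 UMIs, which kept 3735 of the CD8+ and 910 of the CD4+ cells, these shares were 27.4% and 1.91%.

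Ccl5, which memory and effector CD8+ T cells hold as ready mRNA, was the most abundant ligand in both lineages. CD8+ cells gave 133.3, 11.7, 133.3, 110.1, 97.3 and 102.3 UMIs per 10,000, and CD4+ Tconv cells gave 39.9, 0.337, 40.1, 8.18, 10.8 and 16.1. The direction was the same in 6 of 6 libraries, at a ratio of 6.67 (6.44 to 6.91). Within a library the ratio ran from 3.33 in library 3 to 34.6 in library 2, where the CD4+ side rested on 6 UMIs. Ccl5 was present in 67.2% of CD8+ and 22.4% of CD4+ Tconv cells, or 67.1% and 19.5% after thinning.

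Ccl3 was not called, because library 1 went the other way. CD8+ cells gave 0.869, 0.244, 1.34, 1.79, 1.40 and 1.41 UMIs per 10,000, against 1.01, 0, 0.302, 0.0732, 0.112 and 0.0665 in CD4+ Tconv cells. The ratio was 6.99 (5.18 to 9.68) over all libraries and 15.7 without library 1, whose CD4+ value came from 24 UMIs in 8 cells. A Ccl3 UMI was found in 10.9% of CD8+ and 2.08% of CD4+ Tconv cells.

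Xcl1 was higher in CD8+ cells in 6 of 6 libraries, at a ratio of 5.32 (4.08 to 7.06). Its CD8+ level was 1.82, 0.770, 1.48, 1.03, 1.43 and 2.55 UMIs per 10,000, and its CD4+ Tconv level was 1.31, 0.168, 0.377, 0.0836, 0.0496 and 0.333. The CD4+ value of library 1 came from 31 UMIs in 2 cells, and without that library the ratio was 9.25. The cells outside the gates gave 2.01, 0.472, 1.41, 0.509, 1.07 and 0.338 UMIs of Xcl1 per 10,000, above the CD8+ cells in library 1 and below them in the other 5.

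The CXC genes did not share this pattern. Cxcl2 gave 66 UMIs in 10 of the CD4+ Tconv cells and 34 UMIs in 12 of the CD8+ cells, a ratio of 0.150 (0.0958 to 0.232). It was not called, since only libraries 1 and 4 were lower in CD8+ cells and the other 4 were higher. In library 1 there were 25 UMIs in 2 CD4+ cells (1.06 per 10,000) against 0.0189 in CD8+ cells. In library 4 there were 39 UMIs in 6 CD4+ cells (0.408) and none in CD8+ cells. Library 3 went the other way, with 25 UMIs in 6 CD8+ cells (0.473) against 2 UMIs in CD4+ cells (0.151). The ratio was 0.279 without library 1, 0.284 without library 4 and 0.0412 without library 3, and without the 5 cells with the most UMIs, a choice made after seeing the data, it was 0.286.

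Cxcl3 gave 83 UMIs in 13 CD4+ Tconv cells and 11 UMIs in 2 CD8+ cells, a ratio of 0.0457 (0.0220 to 0.0862). The CD4+ levels were 0, 0, 0.0755, 0.575, 0.323 and 0.0333 UMIs per 10,000, with nearly all UMIs in libraries 4 and 5. CD8+ cells showed UMIs in library 1 (0.0189) and library 4 (0.0344) and none in the other 4. The level was lower in CD8+ cells in 4 libraries and higher in library 1, so that Cxcl3 was not called. Leaving out library 4 moved the ratio to 0.0221, and leaving out library 5 moved it to 0.0685. After thinning, 0.789% of CD4+ and 0.0382% of CD8+ cells held a UMI.

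**Figure D2:**
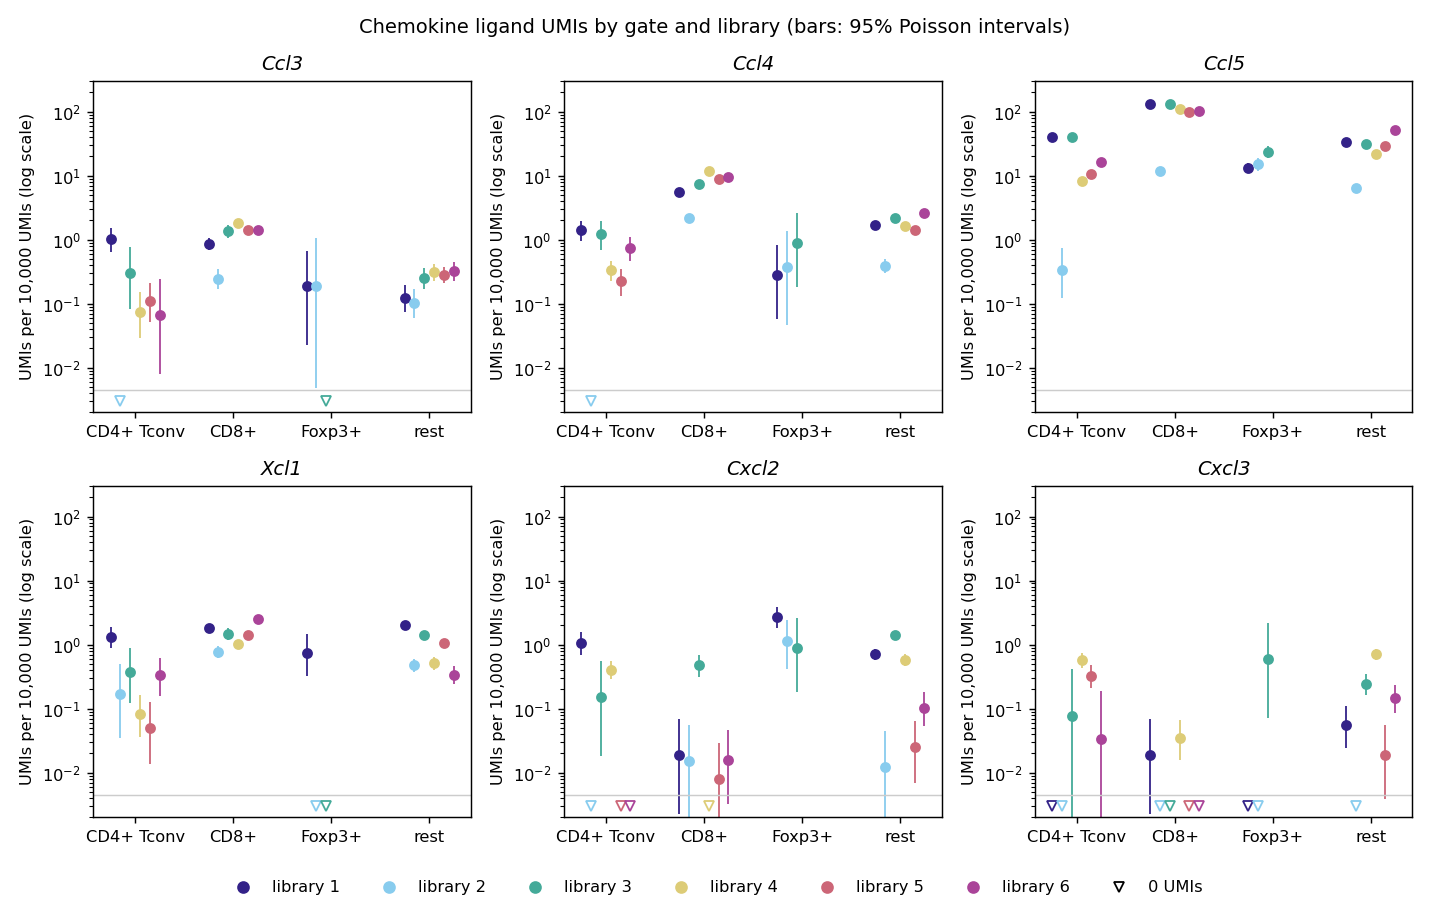
UMIs of each ligand per 10,000 UMIs (vertical axis, log scale) in each gate and library, with exact Poisson 95% intervals; open triangles under the line mark gates with 0 UMIs, and Foxp3+ cells are shown for libraries 1 to 3. CD8+ values lie above CD4+ Tconv values of the same library for Ccl4, Ccl5 and Xcl1, with 1 exception (library 1) for Ccl3. Cxcl2 and Cxcl3 are near or at 0 in most CD8+ sums and at 0 in some CD4+ Tconv sums. For both CXC genes the order of these gates differs between libraries.

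No gate could be taken as free of these transcripts, so the share of positive cells that free RNA in the droplets gives was not measured. The median CD8+ cell was deeper than the median CD4+ Tconv cell in each of the 6 libraries, at 884.5 to 2774 UMIs against 695 to 2555. The part of free RNA in these shares was not tested.

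The Foxp3+ gate was set beside CD4+ Tconv cells in libraries 1 to 3, which held 96 of the 97 Foxp3+ cells. There 123 of 4160 genes were called higher in Foxp3+ cells (2.96%) and 175 lower (4.21%). Cxcl2 was called higher and no other ligand was called. Its level in Foxp3+ cells was 2.71, 1.13 and 0.891 UMIs per 10,000 in libraries 1, 2 and 3, against 1.06, 0 and 0.151 in CD4+ Tconv cells, at a ratio of 3.22 (1.91 to 5.49). This rested on 38 UMIs in 5 Foxp3+ cells and 27 UMIs in 4 CD4+ cells, and 29 of the 38 were in 3 cells of library 1. The median Foxp3+ cell held 1500 UMIs and the median CD4+ cell 996. With matching by depth the Cxcl2 ratio was 2.31 (1.37 to 3.94), still called, and Xcl1 was called lower at 0.351 (0.141 to 0.764), beside 2.72% of genes called higher and 4.01% lower. The Xcl1 call rested on few cells. Foxp3+ cells held 8 Xcl1 UMIs in 1 cell of library 1 and none in libraries 2 and 3. CD4+ Tconv cells held 31, 3 and 5 UMIs in libraries 1, 2 and 3, in 2 cells each.

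Ccl5 was present in 32 of the 97 Foxp3+ cells. It gave 13.4, 15.1 and 23.5 UMIs per 10,000 in libraries 1 to 3, beside 39.9, 0.337 and 40.1 in CD4+ Tconv cells, so Foxp3+ cells were the lower in libraries 1 and 3 and the higher in library 2. Ccl3 had 3 UMIs, Ccl4 8 and Xcl1 8 in these cells, the last all in 1 cell. Cxcl3 had 2 UMIs in Foxp3+ and 1 in CD4+ Tconv cells, too few for the comparison.

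CD4+ Tconv cells were divided next by cytokine transcripts. Il4, Il5 and Il13 are the cytokines of type 2 helper (Th2) cells, and 138 cells of libraries 4 to 6 carried a UMI of at least 1 of them, against 648 without. Of 7087 genes, 147 were called higher in cytokine-positive cells (2.07%) and 327 lower (4.61%). Cxcl3 was called higher, and Ccl4 and Ccl5 were called lower.

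Cxcl3 gave 55, 20 and 1 UMIs in the cytokine-positive cells of libraries 4, 5 and 6, in 7, 3 and 1 cells, against 0, 6 and 0 UMIs in the larger negative population. The ratio was 44.3 (19.4 to 124), and it was 12.2 without library 4. Without library 5 no UMI was expected. The median cytokine-positive cell held 3544 UMIs against 1920, and with matching by depth the ratio was 24.2. Of the 13 CD4+ Tconv cells with a Cxcl3 UMI, 11 were thus among the cytokine-positive cells of these libraries. All 39 Cxcl2 UMIs of CD4+ Tconv cells in library 4 lay in 6 cytokine-positive cells, but libraries 5 and 6 had none in either population, and Cxcl2 was not called.

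Ccl5 went the other way, at 1.52, 0.502 and 7.27 UMIs per 10,000 in the cytokine-positive cells of libraries 4 to 6, against 11.5, 13.7 and 17.7 in the negative ones. The ratio was 0.132 (0.105 to 0.162), or 0.279 with matching by depth. Ccl4 gave 2 UMIs where 24.5 were expected, a ratio of 0.0818. Both UMIs were in library 5, and the ratio was 0.232 without library 4 and 0 without library 5. Ccl3 and Xcl1 gave 2 UMIs each in cytokine-positive cells, and neither was called.

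Ifng, the main cytokine of type 1 responses, divided the CD4+ Tconv cells of libraries 1 and 3 to 6 into 347 positive and 707 negative cells. No ligand was called, beside 0.385% of 7541 genes called higher and 0.782% called lower. The ratio of Ccl4 was 3.70 (2.48 to 5.61), with library 3 the other way. That of Ccl3 was 3.16 (1.63 to 6.35), with libraries 3 and 5 the other way, and 1.19 without library 1. Xcl1 had a ratio of 8.76, which became 3.43 without library 1, where 1 cell held 30 UMIs. For Cxcl2 the Ifng-positive cells held 1 UMI where 34.0 were expected, and for Cxcl3 they held 8 UMIs, all in library 5, at a ratio of 0.165.

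CCR8, a receptor of tumor Treg cells that the study also followed on Tconv cells, was used in the same way. Among 108 CD4+ Tconv cells with a Ccr8 UMI and 823 without in libraries 1, 4, 5 and 6, the ratio of Cxcl3 was 5.58 (3.48 to 9.05), with 46 UMIs in 6 cells against 36 UMIs in 6 cells. It was higher in 3 libraries and at 0 on both sides in library 1, so it was not called, and it was 3.33 without library 4. Cxcl2 had a ratio of 1.05 and was found in 3 Ccr8-positive and 5 Ccr8-negative cells. The ratio was 2.03 without library 1 and 0 without library 4, which held all 15 Ccr8-positive UMIs. No other ligand was called, beside 0.73% of genes called higher and 4.14% called lower.

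Among CD8+ cells, Ccl3 and Xcl1 moved with Ifng. In 1520 Ifng-positive and 2977 Ifng-negative cells, 11 of 9983 genes were called higher (0.11%), and both ligands were among them. Another 0.21% of genes were called lower. Ccl3 gave 1.99, 1.99, 2.83, 2.19, 2.08 and 1.60 UMIs per 10,000 in Ifng-positive cells of libraries 1 to 6, against 0.346, 0.145, 0.724, 1.17, 0.612 and 1.21 in negative ones. The positive cells were the higher in 6 of 6 libraries, at a ratio of 2.21 (1.95 to 2.52), which was 1.92 and below the 2-fold limit without library 5. Xcl1 gave 3.41, 1.85, 2.51, 1.18, 2.18 and 3.67 against 1.08, 0.709, 1.05, 0.801, 0.542 and 1.35, a ratio of 2.58 (2.28 to 2.92).

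Ccl4 was also higher in Ifng-positive CD8+ cells in 6 of 6 libraries, but the ratio of 1.80 was under the limit and reached it, at 2.13, only with matching by depth, where 0.15% of genes were called higher. Ccl5 did not share the direction of the other CC genes across libraries. Its ratio was 1.51, 7.17 and 1.57 in libraries 1, 2 and 3 and 0.867, 0.973 and 0.694 in libraries 4, 5 and 6, which gave 0.937 over all libraries. With matching by depth it was 1.14, higher in 5 of 6.

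Dividing the CD8+ cells by Pdcd1, by Nr4a1 or by Mki67 and Top2a called no ligand. Pdcd1, which encodes PD-1, left Ccl3 at a ratio of 1.06 (0.936 to 1.19), Ccl4 at 0.957, Ccl5 at 0.871 (0.858 to 0.884) and Xcl1 at 1.39 (1.24 to 1.55), where 0.409% of genes were called higher and 0.531% lower. With matching by depth Ccl4 and Ccl5 turned to 1.12 and 1.10. Nr4a1, an early gene of T cell receptor signaling, went with a ratio of 1.82 (1.64 to 2.02) for Xcl1, higher in 6 of 6 libraries, beside 0.361% of genes called higher and 0.25% lower. Cxcl2 gave 31 UMIs in Nr4a1-positive CD8+ cells where 2.10 were expected, but 24 of them were in library 3 and the total came from 9 cells. The Cxcl2 ratio of 14.8 was 7.66 with matching by depth and 4.74 without library 3. Cells with Mki67 or Top2a, genes of dividing cells, had a Ccl5 ratio of 0.487 (0.478 to 0.496), with 1 library of 5 the other way, and an Xcl1 ratio of 1.75 (1.56 to 1.96), higher in 4 of 5, beside 3.64% of genes called higher and 1.59% lower.

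**Figure D3:**
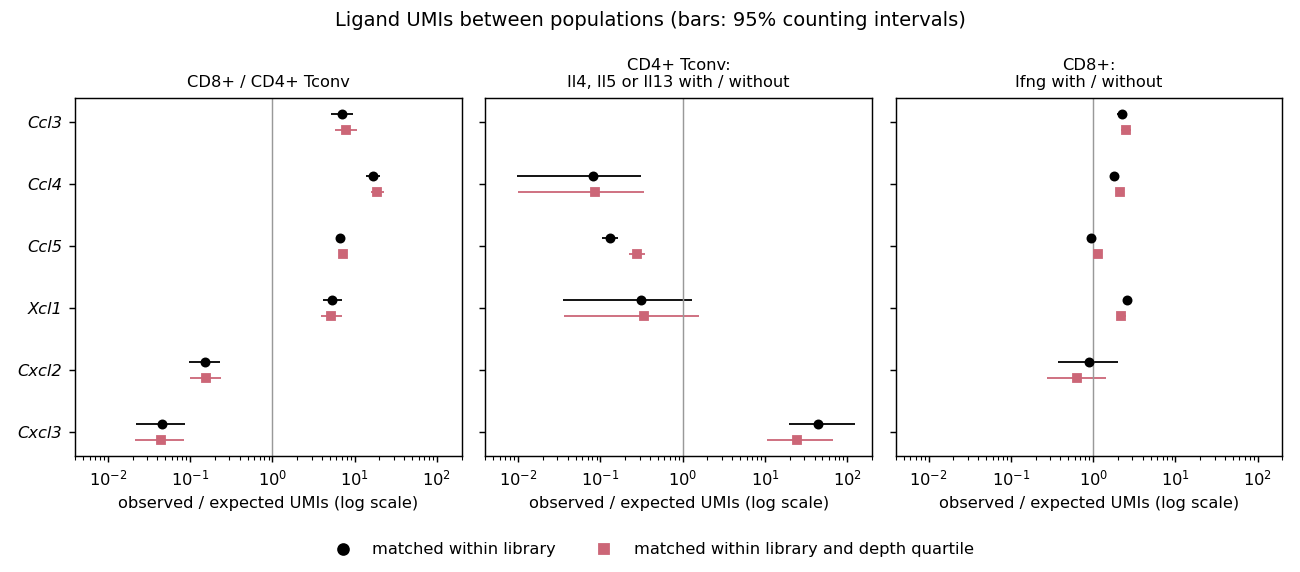
Ratio of observed to expected UMIs (horizontal axis, log scale) for each ligand in 3 comparisons, matched within library (circles) or within library and depth quartile (squares), with 95% intervals that cover counting error of both populations; genes with under 20 UMIs or a ratio of 0 or without expected UMIs are not drawn. CC and C ligands lie right of 1 and CXC ligands left of 1 between CD8+ and CD4+ Tconv cells, and Cxcl3 alone lies right of 1 in cells with Il4, Il5 or Il13.

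Detection of the ligands in the same cells was counted over all 12818 cells and set against the number expected from their shares within library and depth decile. Ccl3 and Ccl4, the neighbors on chromosome 11, met in 467 cells, where 172 were expected (ratio 2.71, 2.47 to 2.97), and 73.7% of cells with Ccl3 also held Ccl4. Ccl5 was present in 90.4% of cells with Ccl3 and in 90.5% of those with Ccl4. Xcl1 met Ccl3 in 127 cells against 61.0 expected (2.08, 1.73 to 2.48) and Ccl4 in 290 against 173 (1.68, 1.49 to 1.89). Within CD8+ cells alone the ratios were smaller, at 1.68 for Ccl3 with Ccl4 and 1.54 for Ccl3 with Xcl1, and pairs of Ccl5 with Ccl3, Ccl4 or Xcl1 ran from 1.06 to 1.11.

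Cxcl2 and Cxcl3 met in 15 cells where 1.21 were expected, a ratio of 12.4 (6.93 to 20.4). These were 15 of the 102 cells with Cxcl2 and of the 36 with Cxcl3. Because the genes share long identical stretches, reads of one counted for the other would also place both in 1 cell, and the part of this in the ratio was not tested.

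Pairs of a CC or C gene with a CXC gene were found together less often than expected in each of the 8 combinations, with ratios from 0.210 for Ccl3 and Cxcl2 to 0.533 for Ccl5 and Cxcl2. The intervals of Ccl3 with Cxcl3 and of Xcl1 with Cxcl3, each met in 2 cells, reached above 1. In all, 35 cells held both a CC and a CXC ligand (24.4 to 48.7), where 74.1 were expected. The expected numbers were not matched by gate. This was not seen within CD8+ cells, where 11 of the 12 cells with Cxcl2 also held Ccl5 and 10.2 were expected. Within CD4+ Tconv cells, Ccl5 met Cxcl2 in 3 cells where 3.31 were expected. It met Cxcl3 in 1 where 3.26 were expected (0.307, 0.00777 to 1.71). The remaining pairs across the families met in no CD4+ Tconv cell, where at most 0.824 were expected, too few to show a deficit.

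**Figure D4:**
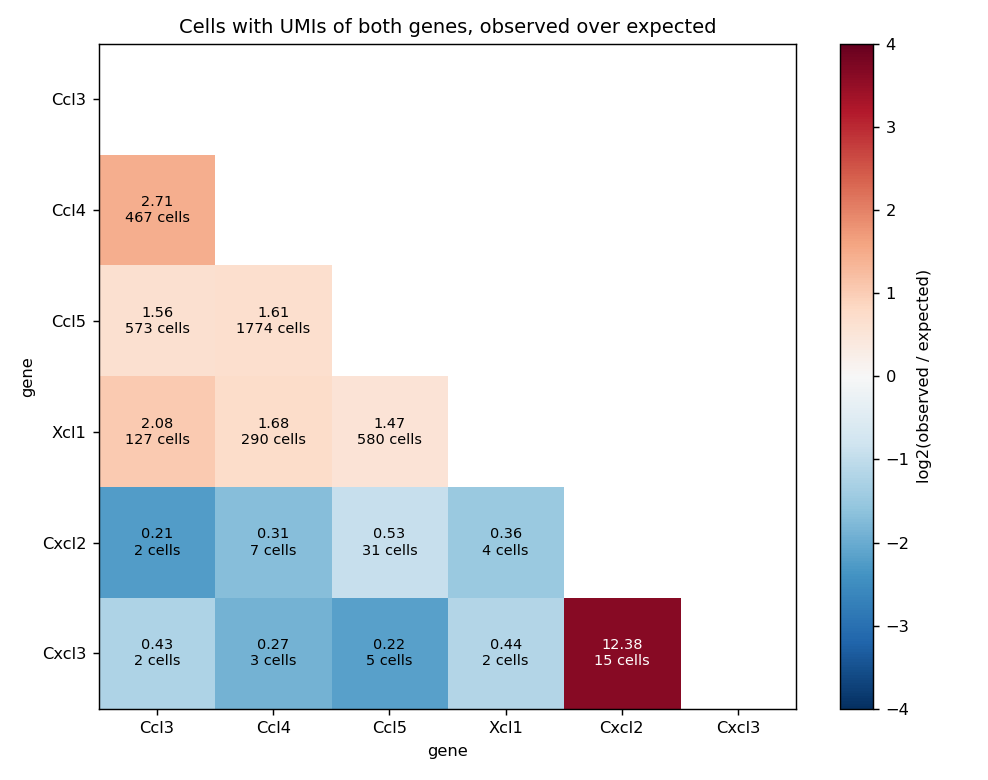
Number of cells with UMIs of both genes of a pair and its ratio to the number expected within library and depth decile; the color gives the ratio on a log2 scale (red above, blue below expectation). All pairs among Ccl3, Ccl4, Ccl5 and Xcl1 and the pair Cxcl2 and Cxcl3 are above 1, and all 8 pairs that cross to the CXC genes are below 1.

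Cells were also described by the other genes they carried. Of the 123 cells with Cxcl2 or Cxcl3, 43 held Il4, Il5 or Il13, where 11.2 were expected by library and depth (3.86, 2.79 to 5.19). Gata3, the transcription factor of Th2 cells, was present in 65 of them (1.86, 1.44 to 2.37). Areg, which encodes the growth factor amphiregulin, was present in 49 (4.04, 2.99 to 5.34), and Ifng in 23 (0.527, 0.334 to 0.791). Cells with Il4, Il5 or Il13 numbered 0, 0, 9, 24, 5 and 5 in libraries 1 to 6, so that the 26 CXC cells of libraries 1 and 2 held none and library 4 gave most. Cells with Areg numbered 8, 1, 12, 16, 6 and 6, with some in each library.

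The 5334 cells with a CC ligand showed the reverse for each of these genes. Il4, Il5 or Il13 was present in 130 against 350 expected (0.371, 0.310 to 0.441), Areg in 166 against 332, and Ifng in 2239 against 1748 (1.28, 1.23 to 1.34), and Gata3 had a ratio of 0.717. Cells with Xcl1 were on the side of the CC cells, at 0.318 for Il4, Il5 or Il13, 0.461 for Areg and 1.35 for Ifng (344 cells against 254). Ccl1, the ligand of CCR8, was an exception. Its ratio was 0.725 in CC cells but 3.34 (1.91 to 5.42) in CXC cells and 1.86 (1.38 to 2.45) in Xcl1 cells.

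Markers of other cell types were counted in the same way, since a sort for T cells can hold other leukocytes. A Cd3 or T cell receptor UMI was present in 100 of the 102 cells with Cxcl2 and in all 36 with Cxcl3. The myeloid and neutrophil list, of which 5 of 15 genes were in the table, was found in 3 Cxcl2 cells where 7.47 were expected and in 1 Cxcl3 cell where 3.45 were expected. Of its members, Itgam was seen in 2 Cxcl2 cells where 0.692 were expected, Csf1r in 1 where 0.0157 were expected, Tyrobp and Fcer1g in 1 each where 1.91 and 4.68 were expected, and Cd68 in none where 1.72 were expected. The Th2 list (Gata3, Il4, Il5, Il13 and Il1rl1) was present in 62 Cxcl2 cells (ratio 2.09) and 30 Cxcl3 cells (2.02), and the CD8 markers in 17 (0.354) and 3 (0.147). The Treg list (Foxp3, Ikzf2, Il2ra and Ctla4) had ratios of 1.53 and 1.23.

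NK markers (Ncr1, Klrb1c, Klre1 and Eomes) and the myeloid and neutrophil list were both more frequent than expected in cells with CC or C ligands. NK markers were present in 164 of the 725 Xcl1 cells (ratio 2.63), 667 of the 5120 Ccl5 cells (5.98), 337 of the Ccl4 cells (2.38) and 134 of the Ccl3 cells (2.07). The myeloid and neutrophil list was present in 147 Xcl1 cells (4.58), 419 Ccl5 cells (5.01), 180 Ccl4 cells (1.98) and 71 Ccl3 cells (1.85). Fcer1g and Tyrobp, signaling adaptors used by NK as well as myeloid cells, were present in 113 and 39 Xcl1 cells, where 11.6 and 6.23 were expected, while Cd68 was present in 26 against 12.7, Csf1r in 2 against 0.177 and Itgam in 2 against 5.07. In Ccl5 cells Fcer1g, Tyrobp, Cd68 and Itgam had ratios of 6.15, 7.24, 5.88 and 3.07, and Csf1r was seen in 2 cells against 5.58. A T cell marker was present in 98.2% of Xcl1 cells. Without cells that held a marker of myeloid, B, melanoma or stromal cells, the ratio of Xcl1 between CD8+ and CD4+ Tconv cells was 5.23, beside 5.32 in all cells. CD8+ T cells also express genes of the NK list, and the part of NK or myeloid cells in the levels of Xcl1 and Ccl5 was not tested beyond this. Melanoma markers were found in at most 3 cells with any ligand.

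**Figure D5:**
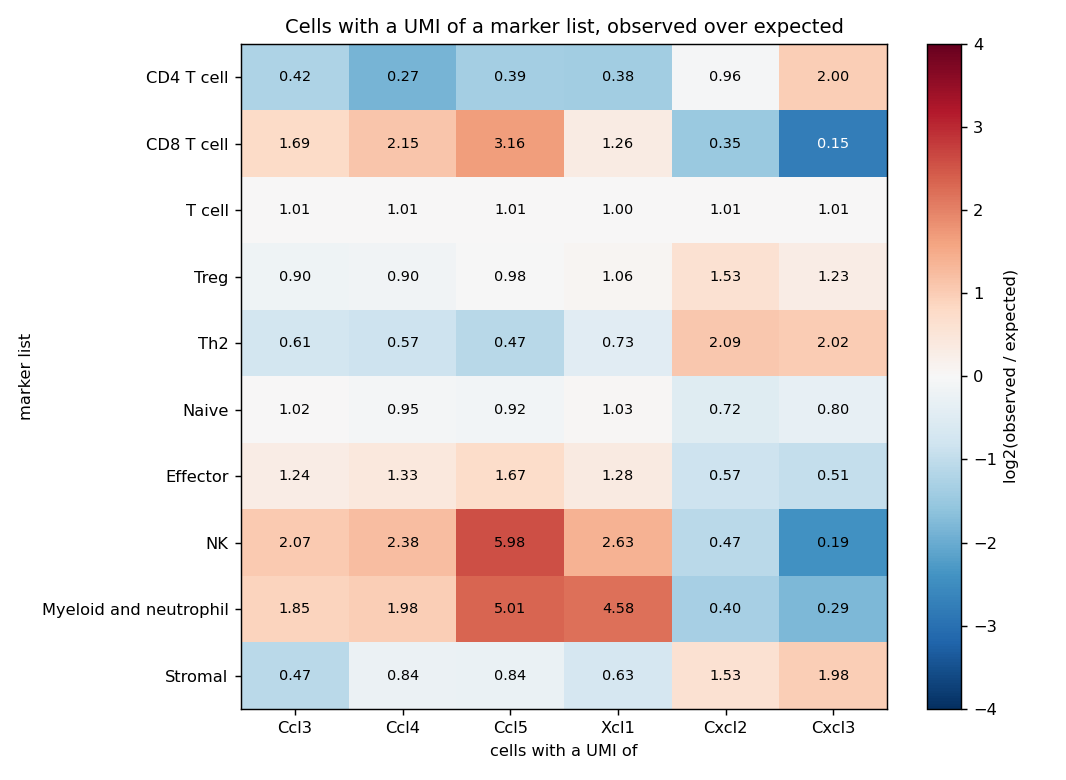
Number of cells with a UMI of each marker list (rows) among cells with a UMI of each ligand (columns), divided by the number expected within library and depth decile; the color gives the ratio on a log2 scale. CD8 and NK lists are above 1 in the columns of Ccl3, Ccl4, Ccl5 and Xcl1 and below 1 in those of Cxcl2 and Cxcl3, and the Th2 list shows the reverse.

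All genes were then compared between cells with and without each ligand, matched within library and depth decile; this comparison, and the genes named from it, were chosen after the data were seen. The genes with the highest ratios in Ccl3 cells were led by other ligands, with Ccl4 at 8.23 and Xcl1 at 4.15. They also included Crtam, a receptor of activated CD8+ and NK cells, at 3.38 and the transcription factor gene Irf8 at 3.03, where 0.134% of genes were called higher. Xcl1 cells were led by Klra1, an NK receptor gene of the Ly49 family, at 19.1, followed by Fcer1g at 8.18, Tyrobp at 6.72 and Klrb1c at 6.28, where 0.312% were called higher. Ccl4 cells had a ratio of 14.7 for Ccl3, 3.37 for Wdr95, 3.27 for Itgax and, lower in the list, 2.42 for Gzmk, which encodes granzyme K. There 0.33% were called higher. Ccl5 cells were led by Klra6, also of the Ly49 family, with 20 UMIs where 0 were expected. Traj22 followed at 266, from 23 UMIs where 0.0864 were expected, and then Gm30211 at 25.2 and Klra3 at 22.7. Gzmk was at 13.9, Olfm1 at 12.9, BC035044 at 12.5, Klra7 at 11.1 and Klrb1c at 9.80 in these cells, with 1.12% called higher. Cxcl2 cells had ratios of 86.3 for Cxcl3, 7.42 for Areg, 6.37 for Dusp14, 6.165 for Mt3 and 5.77 for Ltb4r1. Il1rl1, the receptor of IL-33, was lower in the list at 4.04, with 3.04% called higher. In Cxcl3 cells, compared in 1 library, Cxcl2 was at 54.3, Bex1 at 39.2, Hist1h2bc at 22.6 and Mt2 at 14.45. The decoy receptor gene Il1r2 was at 12.2, Igfbp7 at 11.3, Areg at 10.9, Cd74 at 10.9 and Il5 at 10.6, with 8.65% called higher.

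Across the 12 sums of CD4+ Tconv and CD8+ cells by library, the 5 genes with the pattern most like each ligand were named. The sums share libraries, and the correlations of log2 levels among 7146 genes are a description. Ccl3 had a Pearson r of 0.929 with Ccl4, 0.928 with Gzmk, 0.918 with Nr4a2, 0.904 with Gimap7 and 0.899 with Gm17018. Ccl4 was closest to Gm17018 (0.969), Ly6c2 (0.947), Ccl3, Eomes (0.924) and Ccl5 (0.916), and Ccl5 to Gimap7 (0.943), Gzmk (0.924), Ccl4, Nkg7 (0.903) and Nr4a2 (0.899). Xcl1 was closest to Zfas1 (0.939), Ccl3 (0.879), Ccl4 (0.876), Gm17018 (0.868) and Nr4a2 (0.847).

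The genes closest to Cxcl3 were Pak2 (0.876), Il1rl1 (0.875), Calca (0.868), Cysltr1 (0.861) and Il13 (0.847). Those of Cxcl2 were Kin (0.872), Morf4l1 (0.845), Rabgap1l (0.842), Cpd (0.836) and Dot1l (0.832). Cxcl2 and Cxcl3 were at 0.136 with each other on this scale, where many of the sums hold 0 UMIs of either.

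Among the other genes of the chemokine system, 14 of 31 listed ligands were in the table and 4 had enough UMIs for the comparison of CD8+ with CD4+ Tconv cells. None was called in either direction. Ccl1 was the most abundant, with 1056 UMIs in 210 cells and a ratio of 0.274 (0.231 to 0.326), and Cxcl10, an interferon-induced ligand of CXCR3, had 522 UMIs and a ratio of 1.10 (0.804 to 1.52). Ccl25 (136 UMIs) and Ccl27a (170 UMIs) had ratios of 2.01 and 1.58. Of 23 listed receptors, 19 were in the table and 12 were tested. Ccr4 (0.143, 0.0928 to 0.217) and Ccr8 (0.227, 0.182 to 0.284) were called lower. The most abundant receptors were not called, with ratios of 1.14 for Ccr7 (4935 UMIs), 0.829 for Cxcr6 (3830 UMIs), 1.01 for Ccr2 (2760 UMIs) and 1.14 for Cxcr3 (1788 UMIs). Cxcr2, the receptor of Cxcl2 and Cxcl3, gave 3 UMIs in the whole table, and Xcr1, the receptor of Xcl1, gave 18. The median log2 ratio was 0.39 over the tested ligands and −0.07 over the tested receptors, beside −0.05 over all genes.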

How the data were processed

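Droplet libraries of the 5′ ends of transcripts were made by the authors from sorted TCRβ+ cells, mapped to mm10 per the methods (the labels name mm9), merged with Cell Ranger's aggregation step and filtered in Seurat for 200 to 2500 genes and under 5% mitochondrial reads. The authors deposited raw UMI counts, a whole number for every gene in every cell. The annotation and read length are not given in the sources used here. Whether aggregation equalized read depth is not given either, and depth still differed between libraries.

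Counts were summed over gates and libraries in Python 3.11.15 with numpy 2.4.6 and scipy 1.17.1. Levels are UMIs per 10,000. Gates needed at least 1 UMI. No doublet caller was run, and cells with Cd4 and Cd8 were kept apart. Expected UMIs came from the second population of the same library (at least 10 cells of both), with 0.5 added on the log2 scale, and calls needed at least 20 UMIs. Intervals at 95% are exact Poisson for levels and cells found together, and for ratios exact and conditional on the total, so that they cover both counts rather than the observed UMIs alone as first planned. Correlations used log2 of the level plus 0.1 for genes with at least 200 UMIs. The comparison was run on simulated Poisson counts with known folds, in which cells of a gate differed only in depth. This run does not show how the intervals behave where UMIs gather in few cells. Genes outside the 6 were named where they were called or most abundant in the ligand and receptor lists or were among the 5 most similar, and otherwise after their values were seen. The members and lists were chosen with earlier results of these data known. Sequences are from the GRCm38 genome with GENCODE models, matched by symbol for 6 of 6 genes, and from RefSeq promoters, read with Biopython 1.88. Figures were drawn with matplotlib 3.10.9. Depth per library is given with the results. Alternatives covered matching, gates, thinning, the count minimum and each library left out. A few planned results are not reported here.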

Additional observations from a re-analysis of the deposited data

How the results depend on the processing

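All ratios between CD8+ and CD4+ Tconv cells kept their direction under every alternative run. Gates that needed at least 2 UMIs gave ratios of 3.81 for Ccl3, 9.65 for Ccl4, 6.21 for Ccl5, 2.80 for Xcl1 and 0.275 for Cxcl2. Counting each cell once gave 12.1 for Ccl4, 3.17 for Ccl5 and 0.382 for Cxcl2, and counting at most 5 UMIs per cell gave 3.65 for Ccl5 and 0.311 for Cxcl2. Ccl5 was 6.94 with no matching by library, 7.21 with matching by depth quartile and 6.32 without cells holding markers of other cell types. Without the 5 richest cells, an alternative chosen after seeing the data, Cxcl2 was 0.286. Leaving out each library gave 4.94 to 15.7 for Ccl3, 12.9 to 22.3 for Ccl4, 5.47 to 8.08 for Ccl5, 4.23 to 9.25 for Xcl1, 0.0412 to 0.284 for Cxcl2 and 0.0221 to 0.0685 for Cxcl3. With at most 5 UMIs per cell, CD4+ Tconv cells held 3.77% of the CC and 16.1% of the CXC sum, and CD8+ cells 67.6% and 8.06%. Over single libraries left out, the CD4+ shares were 2.40% to 3.01% (CC) and 11.2% to 26.3% (CXC), and the CD8+ shares 71.8% to 77.4% and 3.60% to 7.32%. The number of genes called was 300, and 355 to 415 without a library, where fewer libraries had to go the same way. No paired analysis was possible because the replicate numbers of the PBS and DTx samples are not carried by the cells; populations were compared within library instead, with no test across libraries. The causes of these shifts were not tested. CXC results rest on 123 cells, and the depth of 1250 UMIs in the median cell limits all shares of positive cells.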
